A study of Mus musculus with 15 samples.

Results

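The mouse mitochondrial genome carries 37 genes, and all 37 were rows of the deposited expression files, which listed 38924 genes. They were taken by name, as every row whose symbol starts with mt-. They comprised 2 rRNA genes, 13 protein genes and 22 tRNA genes. The libraries were poly(A)-selected RNA-seq libraries of CD11b+ myeloid cells sorted by fluorescence-activated cell sorting from brains, without the cerebellum and olfactory bulb, of wild-type C57BL/6J mice at 12 months of age. The mice had been fed a control chow diet (CD) or a western diet (WD), and the cells had been split by the surface level of CD45, the leukocyte common antigen, into CD11b+CD45hi and CD11b+CD45lo cells. The 4 groups were CD-fed CD45hi (n = 4), CD-fed CD45lo (n = 4), WD-fed CD45hi (n = 3) and WD-fed CD45lo (n = 4). The study's methods state that the mice used for sorting were male, and no group carried a transgene or a deletion by its labels. In the study, CD45lo cells stood for resident microglia and CD45hi cells for a population enriched for cells that enter the brain.

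Mitochondrial DNA is transcribed from both strands into long precursors that are cut into rRNAs, mRNAs and tRNAs, with tRNA genes lying between most of the others. The rRNAs build the mitochondrial ribosome, and the protein genes encode core subunits of respiratory chain complexes I, III and IV and of the ATP synthase (complex V). Every other subunit, and all proteins that copy, transcribe and translate mitochondrial DNA, come from nuclear genes. Most mitochondrial mRNAs and the rRNAs end in short poly(A) tails, so both kinds can enter a poly(A)-selected library, whereas mature tRNAs carry no such tail. Levels of mitochondrial RNA differ between cell types with the content and activity of their mitochondria.

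Sequences that bear on how reads of single mitochondrial genes were counted are shown first. They are the reference sequences of the GRCm38 (mm10) mitochondrial chromosome at positions of GENCODE release M21, written 5′ to 3′ on the strand of the gene. The gene mt-Nd4l (chrM:9877-10173, plus strand), a complex I subunit gene, has 297 bases, and the 294 in capitals are shared without a mismatch by Gm10222, an unprocessed pseudogene on chromosome 1 (chr1:24612407-24612700, minus strand).
mt-Nd4l: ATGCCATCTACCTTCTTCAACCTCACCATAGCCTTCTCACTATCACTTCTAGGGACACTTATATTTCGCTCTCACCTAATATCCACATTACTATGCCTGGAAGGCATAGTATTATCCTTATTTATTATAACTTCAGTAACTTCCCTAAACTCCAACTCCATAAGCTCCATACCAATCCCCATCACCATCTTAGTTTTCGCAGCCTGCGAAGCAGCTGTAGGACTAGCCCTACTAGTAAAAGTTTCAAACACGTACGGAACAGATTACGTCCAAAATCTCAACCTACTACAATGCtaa
Reads that lie within the capitals could not be told apart by sequence between the mitochondrial gene and its nuclear copy. The last 7 bases of mt-Nd4l are also the first of mt-Nd4.

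Neighbouring protein genes overlap as well. The 3′ end of mt-Atp8 (chrM:7890-7969, plus strand) shares its 43 capital bases with the start of mt-Atp6, and both encode ATP synthase subunits. The 3′ end of mt-Nd5 (chrM:13526-13565, plus strand) shares its 14 capital bases with mt-Nd6, the only protein gene on the minus strand, which lies antisense to it.
mt-Atp8: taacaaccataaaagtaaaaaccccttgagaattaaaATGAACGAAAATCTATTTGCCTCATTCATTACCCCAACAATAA
mt-Nd5: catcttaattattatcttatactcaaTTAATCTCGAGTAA
The library kit does not mark strand, so reads of mt-Nd6 and of RNA antisense to it could not be separated. Both overlaps are shorter than a read, and the expected counts of mt-Atp8, mt-Atp6 and mt-Nd6 were whole numbers in every library. The lengths of 10 of the 13 protein genes are multiples of 3. The other 3, mt-Co3 (last bases chrM:9361-9390), mt-Nd4 (chrM:11515-11544) and mt-Cytb (chrM:15259-15288), all on the plus strand, end 1 base past their last whole codon, a T shown as a capital, where the poly(A) tail supplies the rest of the stop codon.
mt-Co3: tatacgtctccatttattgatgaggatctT
mt-Nd4: gtccaaaactaattacaggcctgacaataT
mt-Cytb: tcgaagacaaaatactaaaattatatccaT

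None of the 22 tRNA genes had a count in any of the 15 libraries. They are 59 to 75 bases long, and 8 of them lie on the minus strand. The shortest, mt-Ts2 (chrM:11613-11671, plus strand), and the longest, mt-Tl1 (chrM:2676-2750, plus strand), are printed to show the scale against a sequenced fragment.
mt-Ts2: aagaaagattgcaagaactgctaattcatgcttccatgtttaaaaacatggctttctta
mt-Tl1: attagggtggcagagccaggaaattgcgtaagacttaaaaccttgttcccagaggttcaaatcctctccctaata
The files give every tRNA gene an effective length of 0, meaning that the counting program saw no position at which a fragment of typical size could start inside them. A count of 0 allows 3 counts, at most 2.51e-05% of a library, but with an effective length of 0 this limit describes the counting and not the tRNAs in the cells. All values below therefore concern the 2 rRNA and 13 protein genes, 15 members in all, and each of the 15 passed the filter on low counts in the fit.

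Total counts per library ranged from 11951412 to 17912272. Between 14072 and 15477 genes had a count in CD45hi libraries and between 16004 and 17864 in CD45lo libraries. The gate gene Ptprc, which encodes CD45, had 925 ± 179 normalised cpm (counts scaled to a common library size with TMM factors) in CD-fed CD45hi and 417 ± 32.1 in CD-fed CD45lo libraries (SD, n = 4 each), and 1243 ± 77.9 (n = 3) and 423 ± 56.3 (n = 4) in WD-fed ones. On the first principal components 2 libraries stood apart from their groups, CD-fed CD45hi replicate 4 and WD-fed CD45hi replicate 1. No replicate pair agreed within sampling noise. The study describes its deposited counts as those of single animals, whereas the labels name no mouse, so that replicates of a group are separate mice on the study's word alone.

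Mitochondrial genes took nearly the same share of the counts in every CD45hi library, and that share was close to 1.9 times the share in CD45lo libraries in either diet. In CD-fed mice the 4 CD45hi libraries held 18.6, 17.8, 18.8 and 17.7% and the 4 CD45lo libraries 9.70, 10.5, 9.52 and 9.61% of their counts in mitochondrial genes. In WD-fed mice the values were 18.6, 20.5 and 17.9% in CD45hi and 7.99, 10.1, 10.02 and 10.9% in CD45lo libraries. The lowest CD45hi library lay well above the highest CD45lo library in each diet, and no library fell between.

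The means were 18.2 ± 0.542% and 9.83 ± 0.441% (SD, n = 4 each) in CD-fed mice, a ratio of 1.85, and 19 ± 1.35% (n = 3) and 9.75 ± 1.25% (n = 4) in WD-fed mice, a ratio of 1.95. A two-sided exact permutation test gave p = 0.0286 for CD-fed and p = 0.0571 for WD-fed mice, the smallest values that these group sizes allow. Over the 20 share tests made (5 values in 4 comparisons), the Benjamini-Hochberg adjusted exact p was 0.163 for both, and no share test could reach 0.05 after adjustment. Between diets the mean share differed by 0.797 percentage points in CD45hi cells (exact permutation p = 0.343) and by -0.0777 points in CD45lo cells (exact permutation p = 0.943). Both were smaller in size than the SD within the WD-fed groups, but the first was larger than the SD of 0.542 in CD-fed CD45hi libraries.

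**Figure D1:**
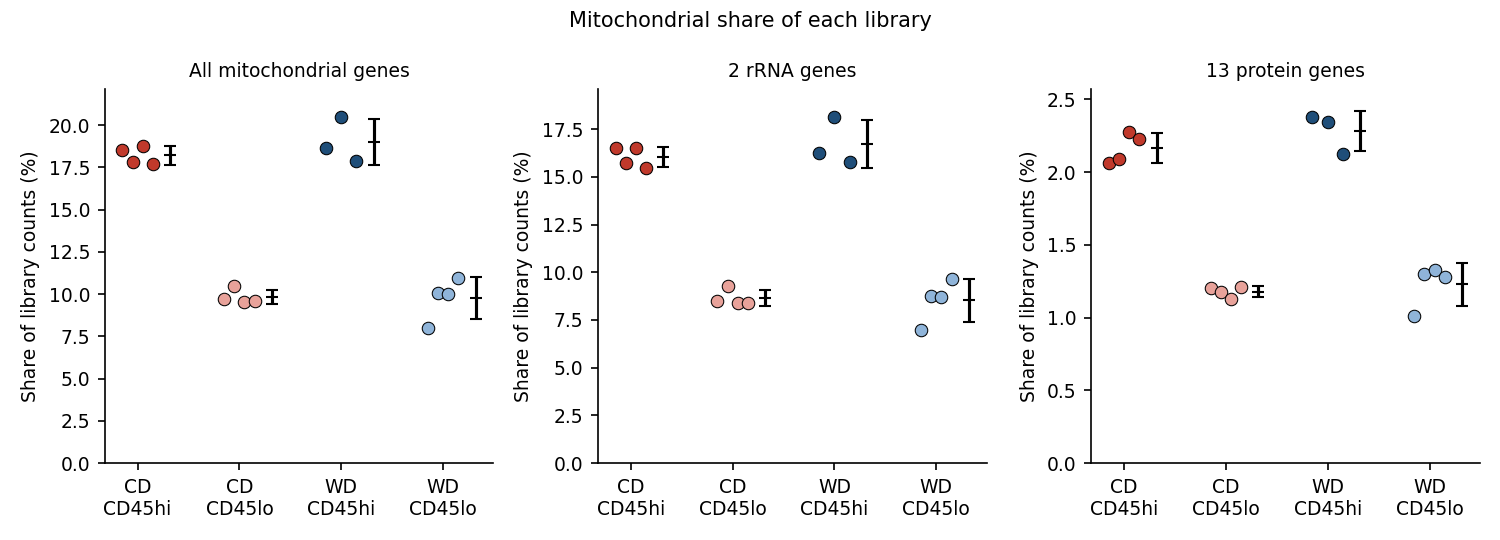
Share of each library's counts (y axis, % of counts) in all mitochondrial genes, the 2 rRNA genes and the 13 protein genes, for the 4 groups on the x axis, with 1 point per library and bars for the mean ± SD. In each panel all CD45hi libraries lie above all CD45lo libraries of either diet, with 18.2 and 19% against 9.83 and 9.75% for all mitochondrial genes.

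Nearly all of this was rRNA. The 2 rRNA genes held 16.5, 15.7, 16.5 and 15.5% of the counts in CD-fed CD45hi libraries against 8.50, 9.31, 8.40 and 8.40% in CD45lo ones. In WD-fed mice they held 16.2, 18.1 and 15.8% against 6.98, 8.78, 8.69 and 9.65%. Both differences repeated the separation of the total, with no overlap between CD45 levels.

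The 13 protein genes held 2.06, 2.09, 2.28 and 2.22% in CD-fed CD45hi and 1.202, 1.18, 1.13 and 1.21% in CD45lo libraries. In WD-fed mice they held 2.38, 2.35 and 2.12% and 1.01, 1.30, 1.33 and 1.28%. The protein genes thus separated the CD45 levels as the rRNAs did, by 0.984 percentage points in CD-fed and 1.05 points in WD-fed mice. For rRNA and for protein genes alike the exact permutation p was again the smallest allowed, 0.0286 and 0.0571, with an adjusted p of 0.163.

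The balance between rRNA and mRNA did not separate the groups. There were 7.43 ± 0.446 rRNA counts per protein-gene count in CD-fed CD45hi, 7.34 ± 0.438 in CD-fed CD45lo, 7.33 ± 0.464 in WD-fed CD45hi and 6.93 ± 0.426 in WD-fed CD45lo libraries (SD, n = 4, 4, 3 and 4). The log2 ratio differed between CD45 levels by 0.02 in CD-fed mice (exact permutation p = 0.771) and by 0.08 in WD-fed mice (exact permutation p = 0.343).

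The 2 rRNAs were compared next, on normalised cpm. The 12S rRNA gene mt-Rnr1 (chrM:70-1024), which forms the small ribosomal subunit, had 45789, 38339, 44089 and 44779 cpm in the 4 CD-fed CD45hi libraries and 15788, 18846, 17096 and 16915 cpm in the 4 CD45lo libraries. In WD-fed mice it had 43801, 56746 and 46199 cpm in CD45hi and 12710.0, 16353, 17146 and 17686 cpm in CD45lo libraries. The lowest CD45hi value was far above the highest CD45lo value in each diet.

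The fitted fold was 2.52 in CD-fed mice (log2 1.33 ± 0.10 SE) with an adjusted p of 2.26e-05, and 3.06 in WD-fed mice (log2 1.61 ± 0.11) with an adjusted p of 1.99e-06. These p-values come from edgeR's quasi-likelihood test against a fold threshold (glmTreat, 1.5-fold) with Benjamini-Hochberg adjustment over all 14967 genes tested, and a gene is said to be called where the adjusted p was below 0.05.

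The 16S rRNA gene mt-Rnr2 (chrM:1094-2675), which forms the large subunit, had the most counts of any member in every library. It had 130817, 124232, 135448 and 131887 cpm in CD-fed CD45hi and 62849, 67649.7, 60825 and 58720.2 cpm in CD-fed CD45lo libraries. The corresponding WD-fed libraries had 138809, 153891 and 131268 cpm and 50337, 63326, 62720.1 and 71335 cpm. CD45hi libraries were again all above CD45lo libraries, by 2.09-fold in CD-fed mice (log2 1.06 ± 0.08, edgeR adjusted p = 0.000196) and 2.28-fold in WD-fed mice (log2 1.19 ± 0.09, edgeR adjusted p = 3.79e-05).

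Because mt-Rnr1 differed by a larger fold than mt-Rnr2, the ratio of their counts was also taken, a measure chosen after these values were seen and given without a test. It was 2.86, 3.24, 3.07 and 2.95 counts of mt-Rnr2 per count of mt-Rnr1 in CD-fed CD45hi and 3.98, 3.59, 3.56 and 3.47 in CD-fed CD45lo libraries. In WD-fed mice it was 3.17, 2.71 and 2.84 in CD45hi and 3.96, 3.87, 3.66 and 4.03 in CD45lo libraries. The ratio was lower in every CD45hi library than in any CD45lo library, in either diet.

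Of the 15 members tested, 11 were called in CD-fed mice and 9 in WD-fed mice, all with the higher level in CD45hi cells. Over all genes tested, 3.39% were called as higher in CD45hi cells in CD-fed and 4.01% in WD-fed mice, and 0.588% and 1.17% were called as lower. No member was called as lower. The median log2 difference of the members was 1.15 in CD-fed and 1.19 in WD-fed mice, beside 0.04 and 0.00 over all genes tested. Without the fold threshold (glmQLFTest) 14 and 13 members passed, beside 5.95% and 6.22% of all genes as higher and 2.08% and 2.90% as lower. All CD45hi libraries were above all CD45lo libraries for 14 of 15 members in either diet, every member but mt-Nd3, as they were for 8.26% and 10% of all genes tested.

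**Figure D2:**
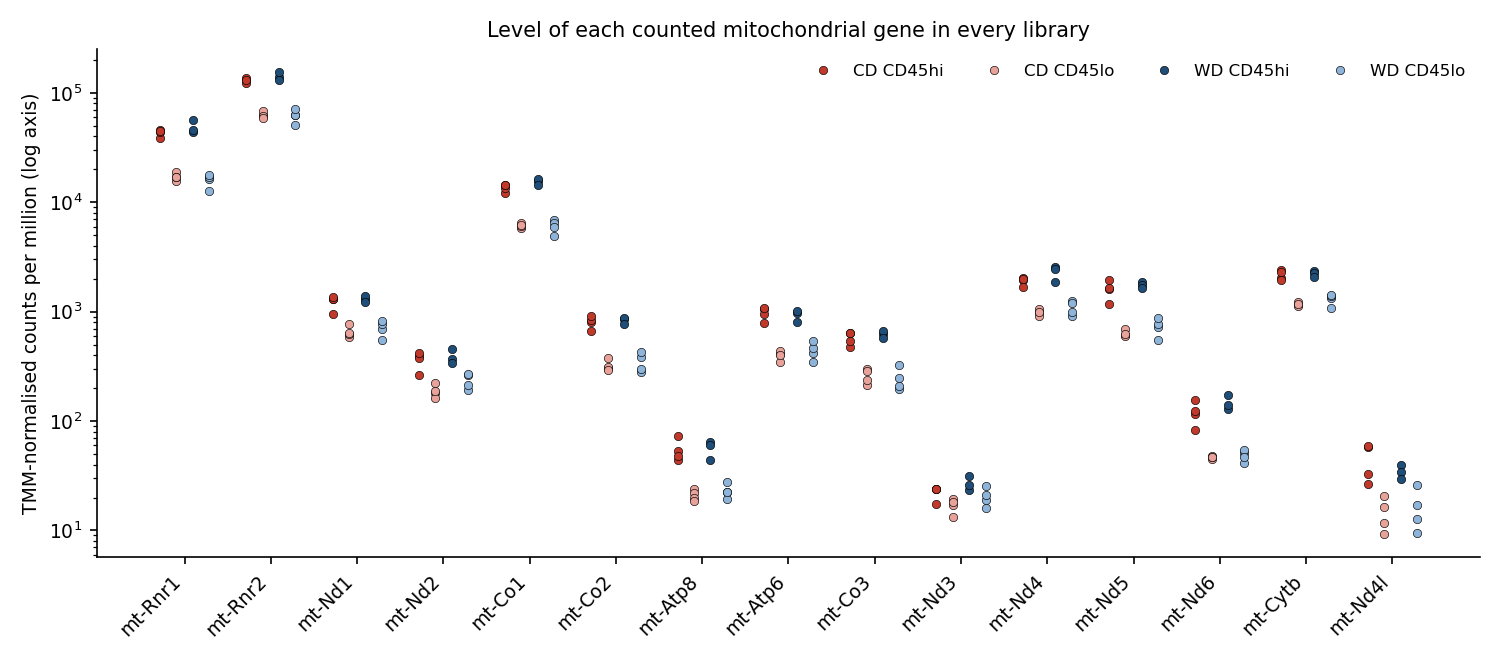
Normalised cpm (y axis, log scale) of the 2 rRNA and 13 protein genes (x axis) in every library, with 1 point per library coloured by its group. CD45hi points lie above CD45lo points of the same diet for every member but mt-Nd3, whose CD45 levels overlap between 17.5 and 19.2 cpm in CD-fed and between 23.4 and 25.5 cpm in WD-fed mice.

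Complex IV, cytochrome c oxidase, is the terminal oxidase of the chain, and its 3 mitochondrial genes mt-Co1, mt-Co2 and mt-Co3 were called in both diets. The catalytic subunit gene mt-Co1 (chrM:5328-6872) had 12065, 13492, 14458 and 14481 cpm in CD-fed CD45hi and 6495, 5820.2, 6048 and 6219.6 cpm in CD-fed CD45lo libraries. Under WD feeding it had 15559.7, 16138 and 14369 cpm and 4920.1, 6823, 6486 and 5907 cpm. CD45hi and CD45lo libraries did not overlap, and the fold was 2.22 in CD-fed (log2 1.15 ± 0.09, edgeR adjusted p = 0.00016) and 2.54 in WD-fed mice (log2 1.35 ± 0.10, edgeR adjusted p = 1.63e-05).

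The copper-binding subunit gene mt-Co2 (chrM:7013-7696) spanned 671 to 917 cpm in CD-fed CD45hi and 290.2 to 378 cpm in CD45lo libraries, and 778 to 870.1 and 281 to 425 cpm in WD-fed ones. Its folds were 2.51 (log2 1.33 ± 0.15) and 2.40 (log2 1.26 ± 0.16). The gene mt-Co3 (chrM:8607-9390) spanned 471 to 633 and 215 to 297 cpm in CD-fed and 577 to 666 and 195 to 324 cpm in WD-fed mice, with folds of 2.2 (log2 1.14 ± 0.17) and 2.55 (log2 1.35 ± 0.18). The edgeR adjusted p-values for CD-fed and WD-fed mice were 0.000833 and 0.0028 for mt-Co2, and 0.0169 and 0.00284 for mt-Co3.

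Complex V, the ATP synthase, has 2 mitochondrial subunit genes, both for parts of its membrane portion. The gene mt-Atp6 (chrM:7927-8607) spanned 795 to 1069 cpm in CD-fed CD45hi and 349.6 to 440.5 cpm in CD45lo libraries, and 809 to 1008 and 344 to 536 cpm in WD-fed ones. It was called in both diets, at 2.41-fold (log2 1.27 ± 0.15, edgeR adjusted p = 0.00141) and 2.12-fold (log2 1.08 ± 0.16, edgeR adjusted p = 0.0178). The short gene mt-Atp8 (chrM:7766-7969) spanned 43.7 to 73.5 and 18.4 to 24.2 cpm in CD-fed and 43.9 to 64.1 and 19.6 to 27.7 cpm in WD-fed mice. It was called in CD-fed mice (2.59-fold, log2 1.38 ± 0.27, edgeR adjusted p = 0.0304), and in WD-fed mice its fold of 2.44 (log2 1.29 ± 0.29) had an edgeR adjusted p of 0.0566. Its 43 bases shared with mt-Atp6, in capitals in the sequence given earlier, are a large part of its 204 bases.

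Complex III carries a single mitochondrial subunit, cytochrome b, from mt-Cytb (chrM:14145-15288). This gene had 2028, 1945, 2378 and 2322 cpm in CD-fed CD45hi and 1230.0, 1143, 1136 and 1168 cpm in CD-fed CD45lo libraries. In WD-fed mice it had 2371, 2246 and 2068 cpm and 1087, 1327, 1389 and 1428 cpm. The levels did not overlap, but the fold was among the smaller ones, at 1.85 in CD-fed (log2 0.89 ± 0.11, edgeR adjusted p = 0.0308) and 1.70 in WD-fed mice (log2 0.77 ± 0.11, edgeR adjusted p = 0.164), so that it was called in CD-fed mice and missed the threshold in WD-fed mice.

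Complex I, the NADH dehydrogenase, has 7 mitochondrial subunit genes, which gave the widest range of differences. The gene mt-Nd6 (chrM:13552-14070, minus strand) had 115, 82.9, 124 and 155 cpm in CD-fed CD45hi and 45, 48, 46.5 and 46.7 cpm in CD45lo libraries. The corresponding WD-fed libraries had 174, 128 and 139.8 cpm and 41.1, 51.5, 54.6 and 47.1 cpm. CD45lo libraries were tightly grouped and CD45hi libraries spread over a wider range above them. The folds were 2.56 (log2 1.36 ± 0.21, edgeR adjusted p = 0.00744) and 3.03 (log2 1.60 ± 0.22, edgeR adjusted p = 0.00157).

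The gene mt-Nd5 (chrM:11742-13565) spanned 1178 to 1939.9 and 595 to 688 cpm in CD-fed and 1640.2 to 1847 and 554 to 879 cpm in WD-fed CD45hi and CD45lo libraries. It was called at 2.53-fold (edgeR adjusted p = 0.000757) and 2.39-fold (edgeR adjusted p = 0.0031). The gene mt-Nd4 (chrM:10167-11544) spanned 1681 to 2037 and 913 to 1064 cpm, and 1860.3 to 2551 and 914 to 1251 cpm, and was called at 1.93-fold (edgeR adjusted p = 0.0316) and 2.10-fold (edgeR adjusted p = 0.00815). Both encode antiporter-like subunits of the membrane arm, as does mt-Nd2.

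The other 4 complex I genes were not called in either diet. The gene mt-Nd1 (chrM:2751-3707) spanned 958 to 1356 and 583 to 769.8 cpm in CD-fed and 1229 to 1403 and 546 to 823 cpm in WD-fed mice, with folds of 1.89 (edgeR adjusted p = 0.0797) and 1.85 (edgeR adjusted p = 0.108). The gene mt-Nd2 (chrM:3914-4951) spanned 263 to 415 and 164 to 221 cpm, and 342 to 452 and 191 to 272 cpm, with folds of 1.91 (edgeR adjusted p = 0.118) and 1.65 (edgeR adjusted p = 0.377). Neither overlapped between CD45 levels, and both passed the test without the fold threshold.

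The gene mt-Nd3 (chrM:9459-9806) was the exception among the members. It had 17.5, 23.8, 24 and 23.8 cpm in CD-fed CD45hi and 17.2, 19.2, 18.3 and 13.3 cpm in CD45lo libraries. Under WD feeding it had 23.4, 31.3 and 25.8 cpm and 18.8, 16.1, 21.3 and 25.5 cpm. The groups overlapped in both diets, and the log2 differences of 0.39 ± 0.32 and 0.40 ± 0.34 had edgeR adjusted p-values of 0.959 and 0.842.

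The count of mt-Nd4l cannot be separated from that of its nuclear copy. Its expected count equalled that of Gm10222 to within 0.005 in 15 of 15 libraries, between 144.5 and 919.5 counts each, so the counting program had divided the shared reads evenly. On these divided counts mt-Nd4l had 58.5, 26.7, 33 and 59.2 cpm in CD-fed CD45hi and 9.30, 20.5, 11.7 and 16.5 cpm in CD45lo libraries, and 39.3, 34.2 and 29.3 and 9.44, 12.6, 26.2 and 17.1 cpm in WD-fed ones. The levels did not overlap but varied widely within CD45hi cells, and the log2 differences of 1.61 ± 0.41 and 1.07 ± 0.42 missed the threshold (edgeR adjusted p = 0.0734 and 0.299). With both rows summed into 1, an alternative added after seeing the data, the log2 difference in CD-fed mice was 1.61 ± 0.36 (edgeR adjusted p = 0.0426) and 12 of 15 members were called, while in WD-fed mice the adjusted p was 0.252. Of 10 names of nuclear copies looked for, 4 were found in the data and 2 passed the filter, Gm10222 and Gm10221. Copies outside these names were not searched for. Gm10221, a processed pseudogene on chromosome 5, had log2 differences of 1.18 ± 0.54 and 0.58 ± 0.57 (edgeR adjusted p = 0.448 and 0.784). Other members also had fractional expected counts, as arise where reads are divided among rows. These were mt-Co2 in 14, mt-Co1 in 13, mt-Nd5 in 7, mt-Rnr2 in 2 and mt-Nd2 in 1 of 15 libraries. How many of their reads were divided was not tested.

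**Figure D3:**
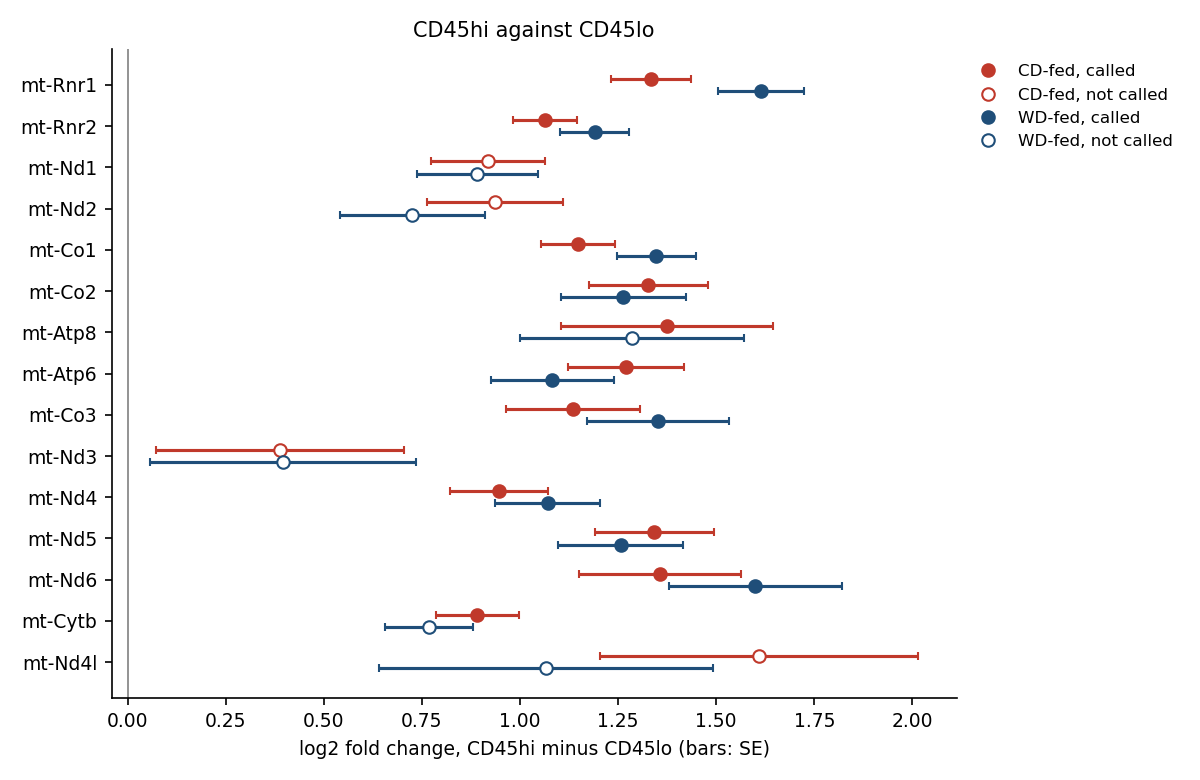
Log2 fold change of CD45hi over CD45lo cells with its standard error for each of the 15 members, in CD-fed and WD-fed mice, with filled symbols for members called. In both diets all 15 values lie above 0, with mt-Nd3 lowest at 0.39 and 0.40 and mt-Rnr1 and mt-Nd6 at 1.61 and 1.60 in WD-fed mice.

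Calls near the threshold depended on single libraries. In CD-fed mice 7 members (mt-Rnr1, mt-Rnr2, mt-Co1, mt-Co2, mt-Atp6, mt-Nd5 and mt-Nd6) were called whichever of the 15 libraries was left out, and the count of 11 became 7 without CD45lo replicate 3. The call of mt-Nd4 was lost without CD45hi replicate 1, 3 or 4 or any 1 of the 4 CD45lo replicates, that of mt-Atp8 without CD45hi replicate 4 or any 1 CD45lo replicate, that of mt-Cytb without CD45hi replicate 3 or 4 or CD45lo replicate 2, 3 or 4, and that of mt-Co3 without CD45lo replicate 1 or 3, with edgeR adjusted p-values of 0.0525 to 0.0980. In WD-fed mice the call of mt-Atp6 was lost without CD45hi replicate 2 or CD45lo replicate 1 (edgeR adjusted p = 0.0512 and 0.0650). Calls were gained as well. Without CD-fed CD45hi replicate 2, mt-Nd1, mt-Nd2 and mt-Nd4l were called in CD-fed mice, 14 members in all (edgeR adjusted p = 0.0221, 0.0317 and 0.0451), and mt-Atp8 was called in WD-fed mice without CD-fed CD45hi replicate 4 or WD-fed CD45hi replicate 3 (edgeR adjusted p = 0.0368 and 0.0306). With both libraries that stood apart left out, a choice made after seeing the data, 8 members were called in CD-fed mice, without mt-Atp8, mt-Nd4 and mt-Cytb, and 9 in WD-fed mice.

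Composition within the mitochondrial transcripts was compared as shares, which no scaling of libraries can change. The gene mt-Co1 made up 58.1 ± 3.25, 56.6 ± 2.32, 59.2 ± 0.984 and 53.7 ± 3.26% of the counts of the 13 protein genes in CD-fed CD45hi, CD-fed CD45lo, WD-fed CD45hi and WD-fed CD45lo libraries (SD, n = 4, 4, 3 and 4). It was the largest single part of that sum in every group. The share of mt-Cytb was 9.19, 8.99, 9.60 and 9.13% in CD-fed CD45hi and 11.1, 10.5, 10.8 and 10.7% in CD45lo libraries, and 8.86, 8.25 and 8.65% and 11.9, 11.3, 11.4 and 12.1% in WD-fed ones. CD45hi libraries were all below CD45lo libraries for this share, which was picked after its values were seen and is given without a test.

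The share of mt-Nd3 was low throughout, at 0.0792, 0.110, 0.0970 and 0.0937% in CD-fed CD45hi and 0.155, 0.176, 0.175 and 0.122% in CD45lo libraries. In WD-fed mice it was 0.0875, 0.115 and 0.108% in CD45hi and 0.206, 0.137, 0.174 and 0.215% in CD45lo libraries, again without overlap, and also picked after its values were seen. The minus-strand gene mt-Nd6 made up 0.504 ± 0.0937, 0.429 ± 0.0176, 0.569 ± 0.0916 and 0.433 ± 0.0239% in the same order of groups. Between CD45 levels its share overlapped in CD-fed mice (exact permutation p = 0.171, adjusted 0.429) and did not in WD-fed mice (exact permutation p = 0.0571, adjusted 0.163).

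Levels of different members can be compared only per length, for which the deposited TPM (a level scaled by effective length and library) were used. TPM does not allow for members being captured unequally by poly(A) selection. The order below therefore describes these libraries and not RNA levels in the cells. In every group the order ran mt-Rnr2, mt-Rnr1, mt-Co1 and mt-Cytb from the highest level down, and ended with mt-Nd2, mt-Nd6, mt-Nd4l and mt-Nd3, the lowest. The place of mt-Nd4l in this order is not determined, because its TPM rests on reads divided evenly with Gm10222. With all of these reads given to mt-Nd4l its mean TPM would be 878, 419, 659 and 469 in CD-fed CD45hi, CD-fed CD45lo, WD-fed CD45hi and WD-fed CD45lo libraries in place of 439, 209.6, 329.5 and 234, above mt-Nd6 in all 4 groups and above mt-Nd2 in all but the last. In CD-fed CD45hi libraries the TPM was 126679 ± 6459 for mt-Rnr2, 75003 ± 4204 for mt-Rnr1, 13564 ± 1163 for mt-Co1, 3035 ± 229 for mt-Cytb and 165 ± 26.8 for mt-Nd3 (SD, n = 4). In CD-fed CD45lo libraries the same genes had 83486 ± 2673, 41205 ± 2344, 8446 ± 591, 2266 ± 123 and 178 ± 22.4 TPM (SD, n = 4). Between these extremes neighbours were close, as for mt-Nd4 (2158 ± 133), mt-Nd1 (2124 ± 235) and mt-Co2 (2115 ± 149) in CD-fed CD45hi libraries, which differed by less than their SD, and as for mt-Nd6 (455 ± 84.8) and mt-Nd4l (439 ± 146) near the end of the order. The TPM of mt-Atp8 rests on an effective length of 47.1 to 55.9 of its 204 bases.

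The size of the difference between CD45 levels depended on the scale, and its direction did for mt-Nd3 alone. The members' median log2 ratio of group means was 1.15 in CD-fed and 1.19 in WD-fed mice on TMM-normalised cpm, 0.91 and 0.87 on cpm by library total, and 0.68 and 0.65 on TPM. The median over all genes moved too, by -0.24 and -0.32 on cpm by library total and by -0.40 and -0.50 on TPM. Without allowing for that shift, mt-Nd3 on TPM (-0.11 in CD-fed and -0.17 in WD-fed mice) was the only member below 0 on any of these scales. CD45hi libraries were all above CD45lo libraries for 13 and 12 of 15 members on TPM, as they were for 4.76% and 5.10% of all genes tested.

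No member was called between diets. In CD45hi cells 0 of 15 members were called by edgeR's quasi-likelihood test (glmQLFTest, Benjamini-Hochberg adjusted p 0.329 to 0.964), beside 38 of all genes tested (0.254%). In CD45lo cells 0 of 15 were called (adjusted p of 1 for each), beside 0 genes (0%) with 123 at an unadjusted p under 0.05. No member had an unadjusted p under 0.05 in either comparison, and DESeq2 called 0 members in both.

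Within CD45hi cells the log2 difference of WD over CD ran from -0.37 (mt-Nd4l) to 0.31 (mt-Nd6), and 13 of 15 members were above 0 with a median of 0.11. Over all genes tested, 7265 of 14967 were above 0. On cpm by library total 10 of 15 members were above 0. The complex I gene mt-Nd4 had the smallest adjusted p, 0.329 by edgeR's test, with a log2 difference of 0.26 ± 0.13 SE, and its CD-fed (1681 to 2037 cpm) and WD-fed (1860.3 to 2551 cpm) levels overlapped. Within CD45lo cells the differences ran from -0.10 (mt-Rnr1) to 0.32 (mt-Nd2), with a median of 0.13. There 11 of 15 members were above 0, beside 7573 of 14967 genes tested. The groups fed the 2 diets overlapped for every member at both CD45 levels. The standard errors, 0.09 to 0.43 in CD45hi and 0.08 to 0.40 in CD45lo cells, limit the size of change that could be seen, so smaller changes were not detectable with these libraries.

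**Figure D4:**
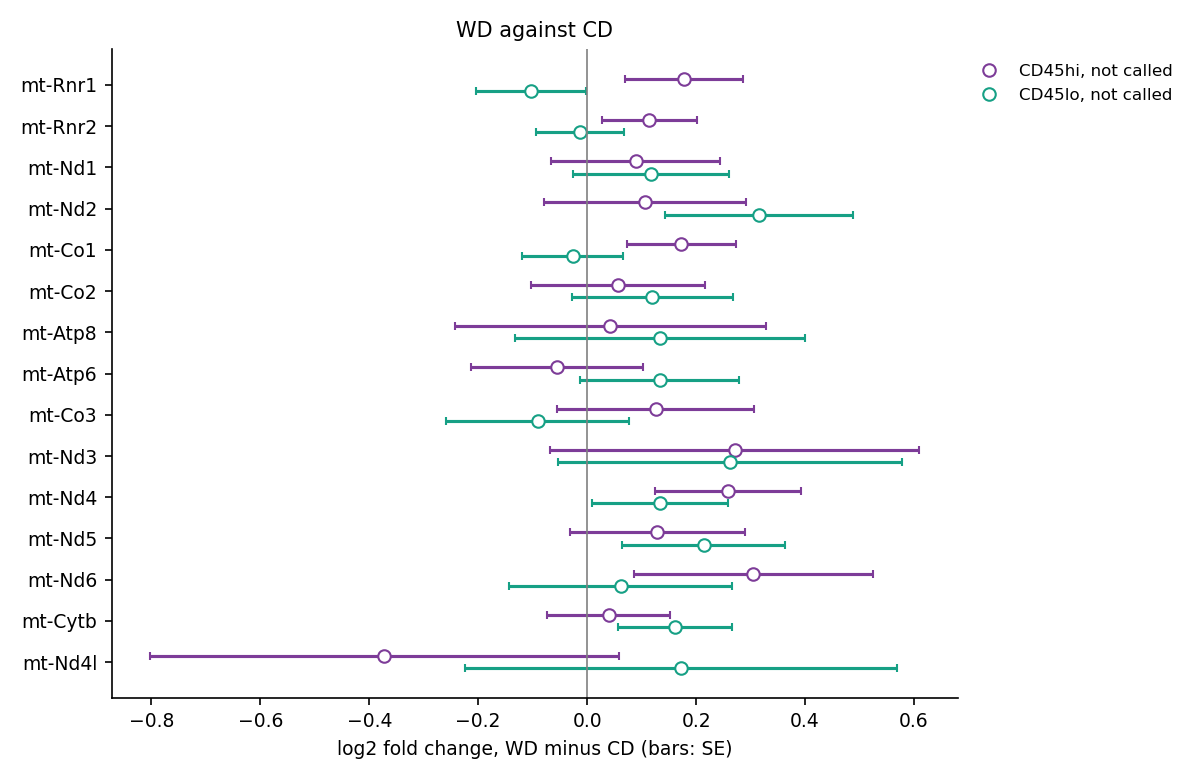
Log2 fold change of WD over CD with its standard error for each of the 15 members, in CD45hi and CD45lo cells, with open symbols because no member was called. Above 0 lie 13 of 15 values in CD45hi and 11 of 15 in CD45lo cells. They run from -0.37 for mt-Nd4l to 0.31 for mt-Nd6 in CD45hi cells and from -0.10 for mt-Rnr1 to 0.32 for mt-Nd2 in CD45lo cells.

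Whether the difference between CD45 levels depended on diet was asked with an interaction term. By edgeR's glmQLFTest 0 of 15 members were called (Benjamini-Hochberg adjusted p 0.559 to 1.00), none had an unadjusted p under 0.05, and DESeq2 called 0. Of all genes tested, 1 was called (0.00668%). The interaction was largest in size for mt-Nd4l, at -0.54 ± 0.58 on the log2 scale, and was 0.28 ± 0.15 for mt-Rnr1. The calls of mt-Atp8 and mt-Cytb in CD-fed and not in WD-fed mice are therefore not shown to differ between diets.

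The nuclear genes whose products work with these transcripts had fewer calls. Their summed level was also lower, at 2229 cpm in CD-fed CD45hi libraries against 23457 cpm for the mitochondrial protein genes. Whether lower counts account for the fewer calls was not tested. Of all genes tested, glmTreat called 3.39% and 4.01% as higher and 0.588% and 1.17% as lower in CD-fed and WD-fed mice. By glmQLFTest 5.95% and 6.22% passed as higher and 2.08% and 2.90% as lower. Of 76 tested nuclear genes for subunits of complexes I to V, 0 were called between CD45 levels in CD-fed mice by edgeR's glmTreat or glmQLFTest, and in WD-fed mice 1 was called as higher in CD45hi cells by glmTreat and 2 by glmQLFTest (Sdhd, and the ATP synthase subunit gene Atp5h with an adjusted p of 0.0465). Their median log2 difference was 0.24 and 0.54. It was -0.03 and 0.25 for 36 complex I genes, -0.06 and -0.02 for 4 complex II genes, 0.53 and 0.90 for 9 complex III genes, 0.50 and 0.93 for 11 complex IV genes and 0.33 and 0.53 for 16 complex V genes, beside 1.15 and 1.19 for the mitochondrial members.

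Summed over genes, the 13 mitochondrial protein genes had 23457 ± 1901 cpm in CD-fed CD45hi, 10850 ± 274 in CD-fed CD45lo, 25941 ± 1792 in WD-fed CD45hi and 11235 ± 1425 in WD-fed CD45lo libraries. The 77 nuclear subunit genes had 2229 ± 192, 2117 ± 74.7, 2636 ± 76.0 and 2056 ± 77.9 cpm. The mitochondrial sum was 10.6 ± 0.970, 5.13 ± 0.124, 9.86 ± 0.947 and 5.45 ± 0.522 times the nuclear one (SD, n = 4, 4, 3 and 4), without overlap between CD45 levels. The nuclear sum of the 3 WD-fed CD45hi libraries, 2592, 2592 and 2723 cpm, lay above that of each other library.

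**Figure D5:**
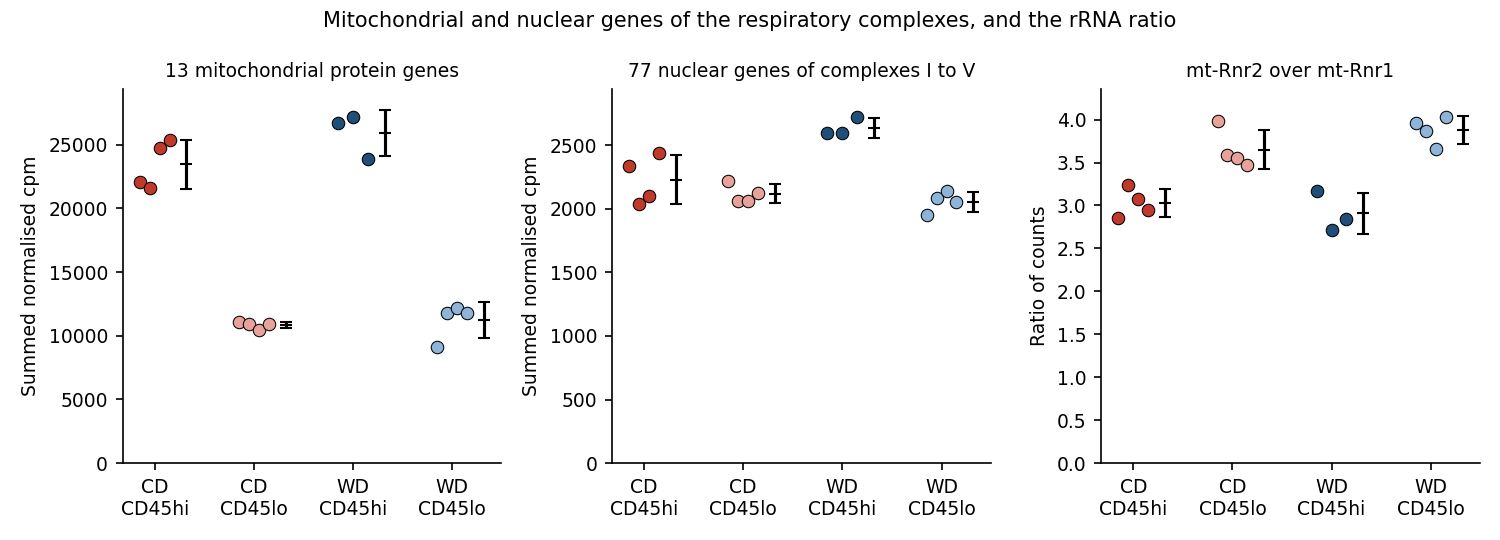
Summed normalised cpm of the 13 mitochondrial protein genes and of 77 nuclear genes for complexes I to V, and the ratio of mt-Rnr2 to mt-Rnr1 counts, for the 4 groups, with 1 point per library. The mitochondrial sum separates CD45hi (23457 and 25941 cpm on average) from CD45lo libraries (10849.7 and 11235 cpm), the nuclear sum lies between 2056 and 2636 cpm on average, and the rRNA ratio is lower in CD45hi libraries.

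The nuclear gene called by glmTreat in WD-fed mice was Sdhd, which encodes a membrane anchor of complex II, the complex without a mitochondrially encoded subunit. It had 93.7, 190.3 and 111 cpm in WD-fed CD45hi and 45.1, 48.3, 69.6 and 45.2 cpm in WD-fed CD45lo libraries (log2 difference 1.34 ± 0.29, edgeR adjusted p = 0.0443). In CD-fed CD45hi libraries it had 42.7, 30.3, 50.1 and 34.8 cpm, all below the WD-fed ones, and it was 1 of the 38 genes called between diets in CD45hi cells (log2 1.74 ± 0.29, edgeR adjusted p = 0.0241). Its interaction was not called (edgeR adjusted p = 0.283).

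Genes that copy, transcribe, process and translate mitochondrial RNA had no call at the fold threshold. Of all genes tested, glmTreat called 3.39% as higher and 0.588% as lower in CD-fed mice, and 4.01% and 1.17% in WD-fed mice. Whether these lists differed from all genes in their share of calls was not tested. Among 18 tested genes of mitochondrial DNA replication and transcription, 37 of RNA processing and turnover, and 76 mitochondrial ribosomal proteins, 0 were called in either diet by glmTreat, with medians of -0.02 and -0.27, -0.46 and -0.42, and -0.13 and 0.22. By glmQLFTest 1 ribosomal protein gene, Mrpl33, passed as higher in both diets (edgeR adjusted p = 0.0322 and 0.0143) and 1 RNA stability gene, Lrpprc, passed as lower in CD45hi cells of CD-fed mice (edgeR adjusted p = 0.0371). Beside these, 5.95% and 6.22% of all genes tested passed as higher and 2.08% and 2.90% as lower.

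Lrpprc encodes a protein that binds and stabilises mitochondrial mRNAs. It had 30.8, 23.1, 47.9 and 49.4 cpm in CD-fed CD45hi and 81.1, 78.3, 65 and 78.7 cpm in CD-fed CD45lo libraries (log2 difference -1.003 ± 0.28). In WD-fed mice it had 61.9, 28 and 42.7 and 73.6, 76.9, 72.1 and 91.4 cpm (log2 difference -0.83 ± 0.31, edgeR adjusted p = 0.107 by glmQLFTest). In each diet every CD45hi library was below every CD45lo library. Its partner Slirp had log2 differences of 0.22 and 0.60 in CD-fed and WD-fed mice.

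Tfam, which packages mitochondrial DNA and starts its transcription, had 10.7, 7.45, 3.25 and 9.98 cpm in CD-fed CD45hi and 19.9, 15.7, 28 and 24.2 cpm in CD45lo libraries (log2 difference -1.48 ± 0.67, edgeR adjusted p = 0.410 by glmTreat). The corresponding WD-fed libraries had 0.564, 18.2 and 15 and 24.1, 26.9, 17.1 and 16.4 cpm, with overlap. The log2 differences in CD-fed and WD-fed mice were -0.00 and -0.99 for the mitochondrial RNA polymerase Polrmt, -0.26 and 0.40 for the DNA polymerase Polg, and -0.94 and -0.44 for the helicase Twnk, listed in the files as Peo1. They were -0.90 and -0.61 for the poly(A) polymerase Mtpap, -0.89 and -0.50 for the tRNA-processing nuclease Elac2, 0.24 and 0.35 for the exoribonuclease Pnpt1, 0.59 and 0.42 for the RNA granule protein Grsf1, and 0.13 and -1.54 for the coactivator Ppargc1a, which had low counts. None of these was called.

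Markers of several cell types moved with the CD45 level and so with the mitochondrial genes. Their calls are by glmTreat, which called 3.39% of all genes tested as higher in CD45hi cells of CD-fed mice and 4.01% in WD-fed mice, and 0.588% and 1.17% as lower. The summed level of 7 microglia markers ranged from 6687 to 8077 cpm in CD-fed CD45hi, 16520 to 17417 in CD-fed CD45lo, 7271 to 7778 in WD-fed CD45hi and 13648 to 16870 in WD-fed CD45lo libraries, and 7 and 5 of the 7 were called as lower in CD45hi cells of CD-fed and WD-fed mice. The sum of 9 neutrophil markers ranged from 1110 to 2950, 53.1 to 264, 722 to 1332 and 43.9 to 107 cpm in the same groups, with 7 of 9 called as higher in both diets. The sum of 6 monocyte and macrophage markers ranged from 3647 to 7189, 80.9 to 180, 2983 to 6009 and 76.8 to 165 cpm, with 5 of 6 called as higher in both diets. Microglia markers were thus present in CD45hi libraries, and no microglia, neutrophil or monocyte marker was at 0 in every library of a group. The part of these cell types in the mitochondrial difference was not tested, and in bulk samples fewer cells of a type and less RNA per cell cannot be told apart.

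Lymphocyte and NK markers, 7 of which were tested, summed to 11.8 to 62.4 and 34.7 to 158 cpm in CD45hi and to at most 0.570 cpm in CD45lo libraries, with 2 and 4 called as higher, and Cd3e, Gzma and Ncr1 had no count in any CD45lo library. The sum of 5 endothelial and mural markers ranged from 33.5 to 81.1, 32.6 to 41.2, 76.1 to 92.1 and 28.6 to 60.9 cpm in CD-fed CD45hi, CD-fed CD45lo, WD-fed CD45hi and WD-fed CD45lo libraries, with Flt1, a VEGF receptor gene, called as higher in both diets. That of 4 oligodendrocyte markers ranged from 95.8 to 147, 76.8 to 96.7, 111 to 218 and 61.9 to 91.6 cpm, with 0 called in CD-fed mice and 1 called as higher in WD-fed mice. That of 7 erythroid and platelet markers ranged from 78.7 to 176, 11.4 to 137, 98 to 159.7 and 15.1 to 94.2 cpm, with Pf4, a chemokine gene of platelets and some macrophages, called as higher in both diets. The sum of 4 astrocyte markers ranged from 38.7 to 86.0, 55.6 to 114, 57.4 to 241 and 44.4 to 99.5 cpm in the same groups. Among them Aldh1l1 was called as lower in CD-fed mice. In WD-fed mice 3 of the 4 had log2 differences above 0, beside 7481 of 14967 genes tested, and 0 were called. Of 3 tested neuron markers 0 were called. The shares of all genes tested that were called were 3.39% and 4.01% as higher and 0.588% and 1.17% as lower in CD-fed and WD-fed mice. The part of these markers in the mitochondrial difference was likewise not tested.

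Of 10 immediate early and heat shock genes, which respond to handling of cells, 0 were called by glmTreat and 3 and 2 passed as higher in CD45hi cells by glmQLFTest. Of all genes tested, 3.39% and 4.01% were called as higher by glmTreat, and 5.95% and 6.22% passed as higher by glmQLFTest, in CD-fed and WD-fed mice. All 10 immediate early and heat shock genes had log2 differences above 0 in both diets, beside 7752 and 7481 of 14967 genes tested. Their medians were 0.95 in CD-fed and 0.73 in WD-fed mice, beside 0.04 and 0.00 over all genes. Their sum averaged 5456 cpm in CD45hi and 3406 in CD45lo libraries of CD-fed mice, and 5232 and 3428 in WD-fed ones. The part of these genes in the mitochondrial difference was not tested. The non-mitochondrial row Gm26924, which took 3.16 ± 0.705, 2.07 ± 0.515, 2.96 ± 0.376 and 2.22 ± 1.05% of the counts in the 4 groups, and Lars2 were looked at after seeing the data because such rows can collect rRNA reads. Their log2 differences were 0.85 and 0.73 for Gm26924 (edgeR adjusted p = 0.399 and 0.464 by glmTreat, 0.0627 and 0.122 by glmQLFTest). For Lars2 they were 1.09 and 1.10 (edgeR adjusted p = 0.111 and 0.110 by glmTreat, 0.00858 and 0.0114 by glmQLFTest). Every CD45hi library lay above every CD45lo library for Lars2 in both diets, and for Gm26924 in CD-fed mice only. The part of these rows in the mitochondrial difference was not tested. With these rows and the mitochondrial genes left out of the library sizes and scaling factors, 11 and 9 members were called, the same counts as before.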

How the data were processed

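Poly(A)-selected libraries were sequenced in pairs of reads by the study. Per the labels and the study's methods, the authors trimmed and aligned the reads to the mouse genome mm10 and quantified genes with RSEM (v1.2.12) using Bowtie2. The annotation release is not given in the sources used here. The deposited expected counts are RSEM's estimates, in which a read that matches several genes is divided among them. The deposited TPM values, also made by the authors with RSEM, are scaled by effective length and library. The deposited FPKM column was not used.

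The expected counts were rounded, and 14967 of 38924 genes passed a minimum of 1 cpm in 2 or more libraries. All 15 libraries entered 1 edgeR (v4.0.16, R v4.3.3) quasi-likelihood fit with TMM scaling. CD45hi and CD45lo cells were compared with glmTreat (fold of 1.5), and diets and their interaction with glmQLFTest, with Benjamini-Hochberg adjusted p below 0.05. Standard errors are the log2 difference divided by the square root of F. Shares of counts were compared by two-sided exact permutation tests (Python v3.11.15), as p-values across groups of this size cannot be taken from a normal approximation. The fit was tested on simulated counts. Gene positions came from GENCODE M21, in which 37607 of the 38924 identifiers were found. All 15 counted mitochondrial genes are named. Of the nuclear lists, up to 3 called genes in each direction and 11 fixed regulators are named. The members and lists were chosen with earlier results of these data known. DESeq2 (v1.42.0), other scalings and filters, blocks by replicate number and leaving out each library were tried as alternatives.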

Additional observations from a re-analysis of the deposited data

Results flagged for a closer look

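Single libraries stood apart from the rest of their group of 4 in 4 of 60 groups tested by the gap to the nearest library over the whole range (Dixon's ratio, judged at its usual critical value), where chance alone gives about 1 in 20. For mt-Nd1, CD-fed CD45hi replicate 2 had 957.7 normalised cpm and the nearest library 1304 cpm (ratio 0.870). For mt-Nd3, CD-fed CD45hi replicate 1 had 17.5 cpm and the nearest library 23.8 cpm (ratio 0.961). The 2 rRNA genes took 9.31% of the counts in CD-fed CD45lo replicate 2 and 8.50% in the nearest library (ratio 0.884). The 13 protein genes took 1.01% of the counts in WD-fed CD45lo replicate 1 and 1.28% in the nearest library (ratio 0.849).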

How the results depend on the processing

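Under 14 other settings and with each library left out in turn, every log2 difference of CD45hi over CD45lo cells stayed above 0 for the 15 members, and 0 members were called between diets or for the interaction. The number called between CD45 levels ran from 8 to 14 in CD-fed and from 7 to 13 in WD-fed mice over the other settings, with 9 and 9 by DESeq2. With 1 library left out it ran from 7 to 14 in CD-fed and from 8 to 10 in WD-fed mice. The labels name no shared mouse. The file numbers, which each CD45hi library shares with 1 CD45lo library of its diet, may mark the mouse, but no source used here says so. In CD-fed mice they give the same pairs as the replicate numbers. Deviations of same-numbered CD45hi and CD45lo libraries correlated at -0.022 to 0.069 by replicate number and at -0.00047 to 0.069 by file number. No pair known to share a mouse was at hand for comparison, so these values do not show whether mice were shared. With a replicate block by titles 8 and 9 members were called, and with a replicate block by file numbers, which leaves out WD-fed CD45lo replicate 1, 8 and 7. Under both blocks the calls of mt-Atp8, mt-Nd4 and mt-Cytb were lost in CD-fed mice, and under the second those of mt-Atp6 and mt-Nd4 in WD-fed mice. The median log2 difference of all genes moved by -0.14 and -0.13 under the first block and by -0.25 and -0.25 under the second.

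Differences near 0 changed sign, none of them called. Interaction values were 0.019 for mt-Nd1, 0.00078 for mt-Co2 and 0.0058 for mt-Nd5 with the block by titles, -0.016 for mt-Nd3 with the block by file numbers and 0.025 for mt-Nd1 without the 2 libraries that stood apart. On TPM the log2 rRNA to protein ratio differed between diets by 0.010 in CD45hi cells and the mt-Nd6 share by -0.0028 points in CD45lo cells. With 1 library left out, the log2 difference between diets in CD45hi cells ran from -0.013 to 0.14 for mt-Nd1, from -0.019 to 0.19 for mt-Nd2, from -0.021 to 0.12 for mt-Co2, from -0.061 to 0.22 for mt-Atp8, from -0.14 to 0.039 for mt-Atp6 and from -0.0077 to 0.091 for mt-Cytb. In CD45lo cells it ran from -0.088 to 0.075 for mt-Rnr2, from -0.090 to 0.060 for mt-Co1, from -0.26 to 0.0029 for mt-Co3 and from -0.15 to 0.38 for mt-Nd4l. The interaction ran from -0.13 to 0.053 for mt-Nd1, from -0.16 to 0.045 for mt-Co2, from -0.19 to 0.086 for mt-Atp8, from -0.12 to 0.13 for mt-Nd3 and from -0.21 to 0.021 for mt-Nd5. Between diets the mitochondrial share ran from -0.470 to 0.511 points in CD45lo cells, the rRNA share from -0.0389 to 1.16 points in CD45hi and from -0.504 to 0.387 points in CD45lo cells, the log2 rRNA to protein ratio from -0.060 to 0.031 in CD45hi cells and the mt-Nd6 share from -0.0042 to 0.0155 points in CD45lo cells. Between CD45 levels in CD-fed mice the log2 rRNA to protein ratio ran from -0.019 to 0.054. The cause of these changes was not tested. Group sizes of 3 and 4 keep every share test from passing after adjustment, and counts of mt-Nd4l and mt-Nd3 were low.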
